A study of Mus musculus with 9 samples.

Results

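Smndc1, Atrx and Daxx are 3 of the 14969 genes to which the authors assigned a window of chromatin signal, and they were taken by name from the deposited table of windows. Each has 1 window. The signal comes from ChIP-seq, sequencing of DNA that is pulled down with an antibody to a chromatin protein, here one labelled as specific for trimethylated lysine 9 of histone H3 (H3K9me3). AlphaTC1, a murine pancreatic alpha cell line from a tumour driven by viral large T antigen under the glucagon promoter, was measured in 2 groups, both taken 5 days after transduction. The cells of one group carried an empty vector, and in the other Smndc1 was knocked down by shRNA. BetaTC3, a murine beta cell line from an insulinoma driven by the same antigen under the insulin promoter, formed the third group and was not treated. Each group had 2 ChIP libraries and 1 input, 9 samples in all. Both alphaTC1 groups carried a vector and betaTC3 did not, so line and vector cannot be told apart in comparisons with betaTC3. Whether the 2 libraries of a group are separate cultures is not labelled, and the p-values below cover the spread between libraries only, which may be technical.

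SMNDC1 is a Tudor domain protein related to SMN, the survival motor neuron protein, and associates with the U2 snRNP during assembly of the spliceosome. ATRX is an ATP-dependent chromatin remodeller that binds histone H3 carrying H3K9me3, and DAXX is a chaperone of the replacement histone H3.3. The pair deposits H3.3 in heterochromatin at telomeres and pericentromeric repeats, and in human pancreatic neuroendocrine tumours both genes are recurrently mutated. The series concerns the role of SMNDC1 in chromatin, splicing and hormone expression. The comparisons below ask how the labelled mark stood at the starts of these genes after the knockdown and in the other cell line.

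Before the genes themselves, the libraries were set against their labels. H3K9me3 is a mark of silent chromatin, yet 11139 of the 17641 windows (63.1%) had their centre within 1 kb of a gene start. A window lay there at 61 of 84 genes of cytosolic ribosomal proteins (72.6%), which all cells express, and at 2 of 1110 genes of olfactory receptors (0.18%), a family that endocrine cells hardly express. The libraries are therefore called by their label without taking the signal as a measure of silencing. The values are scaled reads, whole read numbers multiplied by 1 factor per library that the authors set, and the libraries held 4530066 to 9924487 reads in windows. Windows within 2 kb of the starts of alpha cell markers (5 of 6 genes with one) summed to 2438 to 3203 scaled reads in the 4 alphaTC1 libraries and to 414 to 441.6 in betaTC3, where Gcg, the glucagon gene, was at 0. Those of beta cell markers (8 of 9 genes) summed to 702.3 to 1134 in alphaTC1 and to 6433 to 6947 in betaTC3, with Glp1r and Slc2a2 at 0 with the empty vector and Pcsk1, Mafa, Glp1r, Ins1 and Pdx1 at 0 with the knockdown. Nearly all of the alphaTC1 sum of beta cell markers came from Nkx6-1. Its window near the start ranged from 697.5 to 1129 scaled reads over the alphaTC1 libraries. In betaTC3 that window was at a similar level, 1223 and 1135. No other beta marker window in these sums exceeded 11.92 (Mafa) in alphaTC1. Windows at delta and PP cell markers (1 of 3 genes, Sst, the others having none) summed to at most 2.648 in alphaTC1 and to 93.26 to 107 in betaTC3. Acinar and duct markers (1 of 4 genes, Sox9) summed to 464.6 to 601 and 3.993 to 4.758, and neuronal markers (1 of 3, Snap25) to 532.7 to 827.4 and 926.4 to 955.4. Farther from the start, neuronal windows did not follow Snap25. Gad1 at 9006 bp held 126.6 to 140.3 in alphaTC1 and 1.597 and 1.903 in betaTC3. Neurod2 at -4904 bp held 135.0 to 166.8 and 28.75 and 37.11. At -9199 bp Neurod2 overlapped, with 173.2 to 256.8 and 217.2 and 92.31. The part of these markers in the values of the 3 genes was not tested. The cells were sequenced in bulk, so fewer cells with the signal and less signal per cell cannot be told apart.

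The windows of all 3 genes lay inside the gene, just past its start, on the mm10 (GRCm38) build. That of Smndc1 (ENSMUSG00000025024, minus strand) was at chr19:53389863-53390263, centred 515 bp into the gene. That of Atrx (ENSMUSG00000031229, minus strand) was at chrX:105928837-105929237, centred 366 bp into the gene, and that of Daxx (ENSMUSG00000002307, plus strand) was at chr17:33909549-33909949, centred 335 bp into it. Each window was 401 bp wide, and their levels can be compared per length. The sequence of the starts is shown because the main peak of each gene, described below, covers the gene start, although at Atrx it ends inside the printed stretch in some libraries. The RefSeq promoters (GRCm38.p6) run from 250 bases before to 50 bases after a transcript start, are written 5′ to 3′ along the gene, and carry their CpG dinucleotides in capitals. Of the 2 Smndc1 and 3 Daxx entries, the one of the outermost start is given.
Smndc1, chr19:53390585-53390884, minus strand: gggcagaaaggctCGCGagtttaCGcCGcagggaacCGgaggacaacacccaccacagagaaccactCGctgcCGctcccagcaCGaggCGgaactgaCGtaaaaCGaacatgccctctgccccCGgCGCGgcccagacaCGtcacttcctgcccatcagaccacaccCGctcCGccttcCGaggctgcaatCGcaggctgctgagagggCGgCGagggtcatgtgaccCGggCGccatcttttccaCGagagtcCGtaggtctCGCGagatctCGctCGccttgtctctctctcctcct
Atrx, chrX:105929323-105929622, minus strand: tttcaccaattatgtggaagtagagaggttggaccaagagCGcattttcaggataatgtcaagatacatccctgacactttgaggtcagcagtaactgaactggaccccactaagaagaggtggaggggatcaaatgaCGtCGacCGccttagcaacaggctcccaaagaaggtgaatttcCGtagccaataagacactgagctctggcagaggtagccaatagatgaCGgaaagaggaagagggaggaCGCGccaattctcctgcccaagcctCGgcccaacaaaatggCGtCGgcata
Daxx, chr17:33909195-33909494, plus strand: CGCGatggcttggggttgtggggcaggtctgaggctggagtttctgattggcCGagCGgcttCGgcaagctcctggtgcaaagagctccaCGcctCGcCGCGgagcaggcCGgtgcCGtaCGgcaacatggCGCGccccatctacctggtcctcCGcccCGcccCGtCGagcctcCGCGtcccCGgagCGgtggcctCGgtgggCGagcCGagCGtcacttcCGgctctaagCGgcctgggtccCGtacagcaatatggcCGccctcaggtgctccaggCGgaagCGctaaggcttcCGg

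These promoters differed in composition. That of Smndc1 held 29 CpG dinucleotides and 64.3% G and C, and that of Daxx 33 and 69.7%. More CpG dinucleotides were thus present than in 87.1% and 91.4% of the 32851 mouse promoters of the same length, whose median was 7. The Atrx promoter held 11 CpG dinucleotides and 50.3% G and C, more CpG than 58.6% of promoters. The letters AANATGGC, which resemble the site of the factor YY1, were found on either strand in all 3, once at Smndc1 (minus strand, first base 16 bases before the start), once at Atrx (base 34 after the start) and at a pair of places at Daxx (126 bases before and base 3 after the start). They occur in 6.05% of all promoters, and they were looked for after the 3 sequences had been read. CCAAT was found 4 times at Atrx, once at Daxx and not at this Smndc1 start, against 37.4% of promoters with at least 1. GGGCGG, the GC box, was found once at Smndc1 and 3 times at Daxx (35.7% of promoters), CCGGAAG, which resembles the site of ETS factors, at 2 places of Daxx (8.86%), and TATAAA in none of the 3 (13.6%). These are matches of letters on both strands and not sites shown to be bound. At Daxx the AANATGGC match after the start shares its last base with a GC box, and the other 2 GC boxes also share 1 base.

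For Smndc1 the sequence that was measured can also be shown, because a second RefSeq promoter, of an inner transcript start, covers 272 of the 401 bases of the window. Capitals here mark the bases inside the window.
Smndc1 inner start, chr19:53389992-53390291, minus strand: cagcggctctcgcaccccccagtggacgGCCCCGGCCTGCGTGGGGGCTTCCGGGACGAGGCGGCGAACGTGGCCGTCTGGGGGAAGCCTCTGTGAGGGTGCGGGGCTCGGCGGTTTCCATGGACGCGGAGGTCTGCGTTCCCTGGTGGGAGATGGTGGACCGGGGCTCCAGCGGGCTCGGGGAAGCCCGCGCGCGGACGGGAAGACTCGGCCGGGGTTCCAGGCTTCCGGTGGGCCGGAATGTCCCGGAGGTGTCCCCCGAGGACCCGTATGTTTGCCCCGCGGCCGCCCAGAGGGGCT

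This stretch was richer still, with 35 CpG dinucleotides and 74% G and C, more CpG than 93% of promoters. It held CCGGAAG at 2 places and GGGCGG at 1, and no match to AANATGGC or CCAAT.

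In all 6 peak lists a peak covered the gene start and the whole window of each of the 3 genes. The Smndc1 peak was 2638 and 2640 bp wide in the empty-vector libraries, 2786 and 2694 bp in the knockdown libraries and 2536 and 2770 bp in betaTC3. It reached 1255 to 1411 bp upstream of the gene start and 1174 to 1514 bp into the gene, and 2430 bp (83%) of the stretch covered by any list were in all lists. It was wider than 92 to 93.9% of the peaks of its own list, so the start of Smndc1 belonged to the broad peaks in every library. BetaTC3 library 2 listed 2 further peaks inside the gene, 194 and 201 bp wide at folds of 5.56 and 5.77 over the local background, and no other library listed any there.

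The Daxx peak was of similar width and the Atrx peak was narrower. At Daxx the widths were 2532 and 2758 bp with the empty vector, 2889 and 2888 bp with the knockdown and 2474 and 2726 bp in betaTC3, wider than 91.3 to 95.3% of the peaks of each list. The knockdown peaks were the widest of the 6 here and at Atrx, but not both at Smndc1. How often this holds over the lists was not counted. Median widths of all peaks were 1129 and 1287 bp with the empty vector, 1283 and 1235 bp with the knockdown and 1172 and 1167 bp in betaTC3. Widths were not tested, since 2 libraries against 2 cannot pass an exact permutation test. The upstream part of the Daxx peak, 1209 to 1583 bp long, crosses the long noncoding gene BC051226 (chr17:33908182-33909178 in RefSeq), so its reads cannot be given to Daxx alone. At Atrx the widths were 1678 and 2072 bp with the empty vector, 2345 and 2158 bp with the knockdown and 2098 and 1948 bp in betaTC3, wider than 72.2 to 85.7% of each list. The Atrx peak reached 1648 to 1904 bp into the gene and only 25 to 658 bp upstream of its start.

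The short upstream arm of Atrx was where the lists differed. In empty-vector library 1 and betaTC3 library 2 the signal was called as 2 peaks, with gaps of 66 and 59 bp between them, and in the other 4 libraries as 1. The gaps lay 57 to 122 and 75 to 133 bases before the RefSeq start of Atrx, inside the promoter printed above. The separate upstream peaks were 366 and 196 bp wide with folds of 10.9 and 5.35, against 62.1 and 35.4 for the main peak in the same libraries. Both groups with a split call also had a library with a single peak, so the split did not follow the groups.

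The summits of the peaks that cover the windows lay downstream of the start, at 445 to 538 bp for Smndc1, 301 to 429 bp for Atrx and 277 to 392 bp for Daxx. Within their own lists, the −log10 q-values of the peaks exceeded those of 78.4 to 96.9% of peaks at Smndc1, 65.7 to 80.3% at Atrx and 61.3 to 92.5% at Daxx. Of the 3 genes, the lowest share was that of Atrx in the 2 knockdown libraries and that of Daxx in the other 4. The folds over the local background, the authors' values, were 27.3 to 85.4 at Smndc1, 27.5 to 62.1 at Atrx and 20.2 to 56.1 at Daxx, and the fold of Atrx was the lowest of the 3 in no list. A further peak at the far end of Daxx was found in all 6 lists. Its largest piece was 1305 to 1932 bp wide with its summit 6982 to 7187 bp from the start of Daxx, beyond the end of the gene at 33915590, and the window there is assigned to Zbtb22, the gene that begins next.

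**Figure D1:**
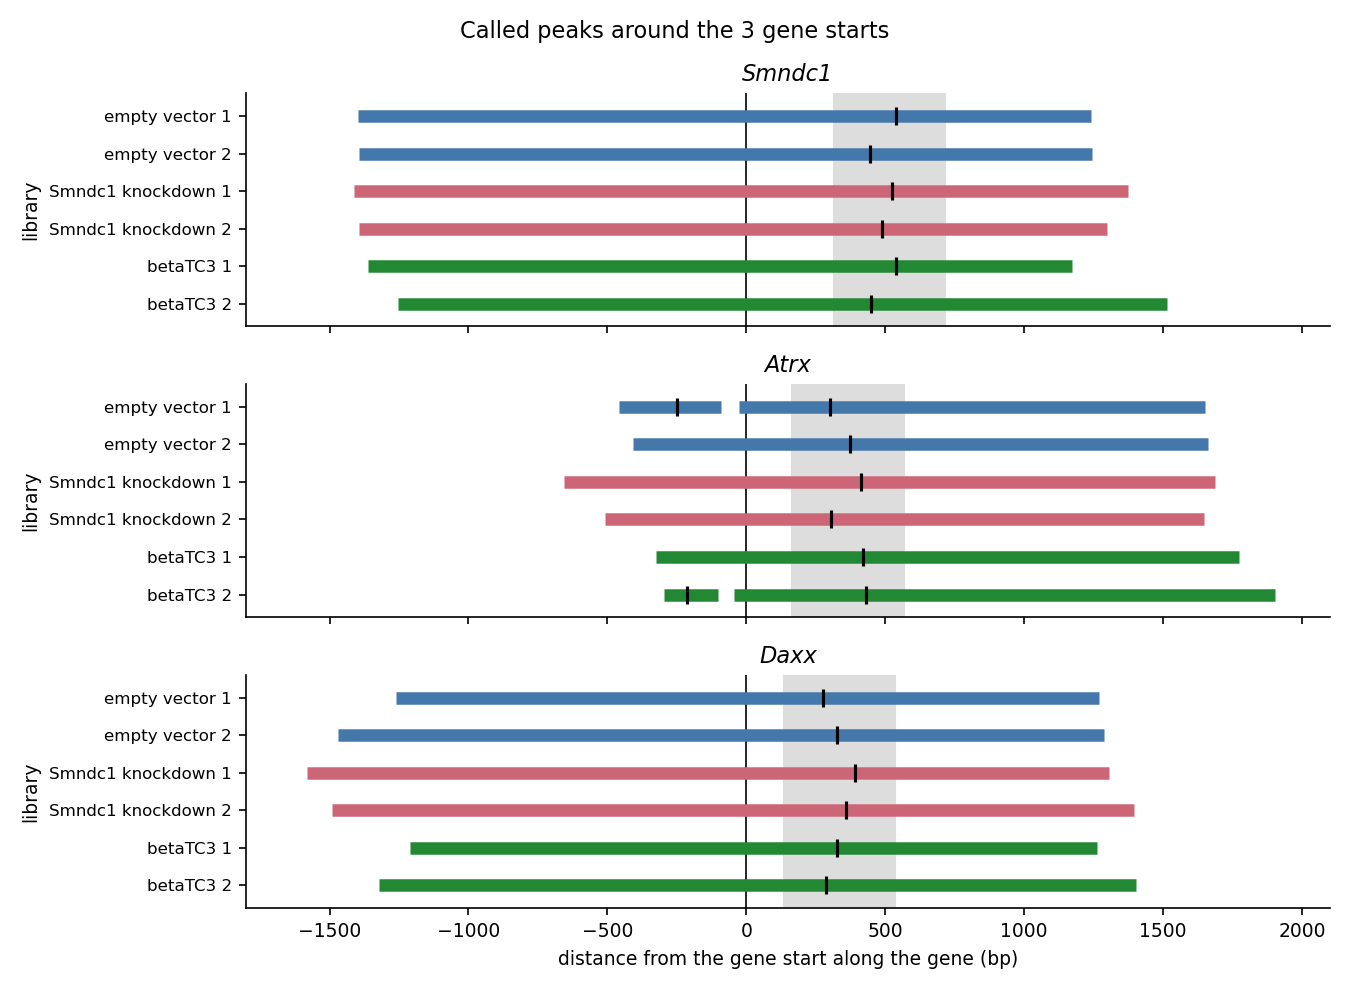
Called peaks (bars) and their summits (black ticks) in the 6 libraries, by distance from the gene start in bp, with the measured window in grey; the 2 short peaks inside Smndc1 in betaTC3 library 2 and the peak at the far end of Daxx lie outside the range drawn. The Atrx bars that cover the start stop 25 to 658 bp upstream of it, and those of Smndc1 and Daxx reach 1209 bp or more. Separate Atrx bars reach 457 bp upstream in empty-vector library 1 and 298 bp in betaTC3 library 2.

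The level at these starts was high in every library. The Smndc1 window stood above 93.1 to 99.5% of all windows of its library, the Daxx window above 85.7 to 94.2% and the Atrx window above 74 to 83.4%. Smndc1, the gene targeted by the hairpin, held 1370 and 1378 scaled reads in the empty-vector libraries, 812.2 and 1126 in the knockdown libraries and 1689 and 1653 in betaTC3. The 3 groups did not overlap, with betaTC3 highest and the knockdown lowest. Over all windows, the knockdown libraries lay below both empty-vector libraries at 64.6%, and betaTC3 lay above both empty-vector libraries at 34.1%, below them at 48.7% and above both knockdown libraries at 49.0%. A hairpin acts on RNA, so this chromatin signal does not check the knockdown.

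Atrx held 807.6 and 748.4 scaled reads with the empty vector, 488.5 and 612.1 with the knockdown and 856.1 and 793.7 in betaTC3. The knockdown libraries were the lowest, and the empty-vector and betaTC3 libraries overlapped. Daxx held 1278 and 1301 scaled reads with the empty vector, 819.4 and 1048 with the knockdown and 1006 and 950.7 in betaTC3. Here the empty-vector libraries were the highest, and betaTC3 fell between the 2 knockdown libraries. Behind these values were 409 to 2115 reads per window and library. Atrx was the lowest of the 3 in each library, and Smndc1 was above Daxx in all libraries but knockdown library 1, where they held 812.2 and 819.4.

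**Figure D2:**
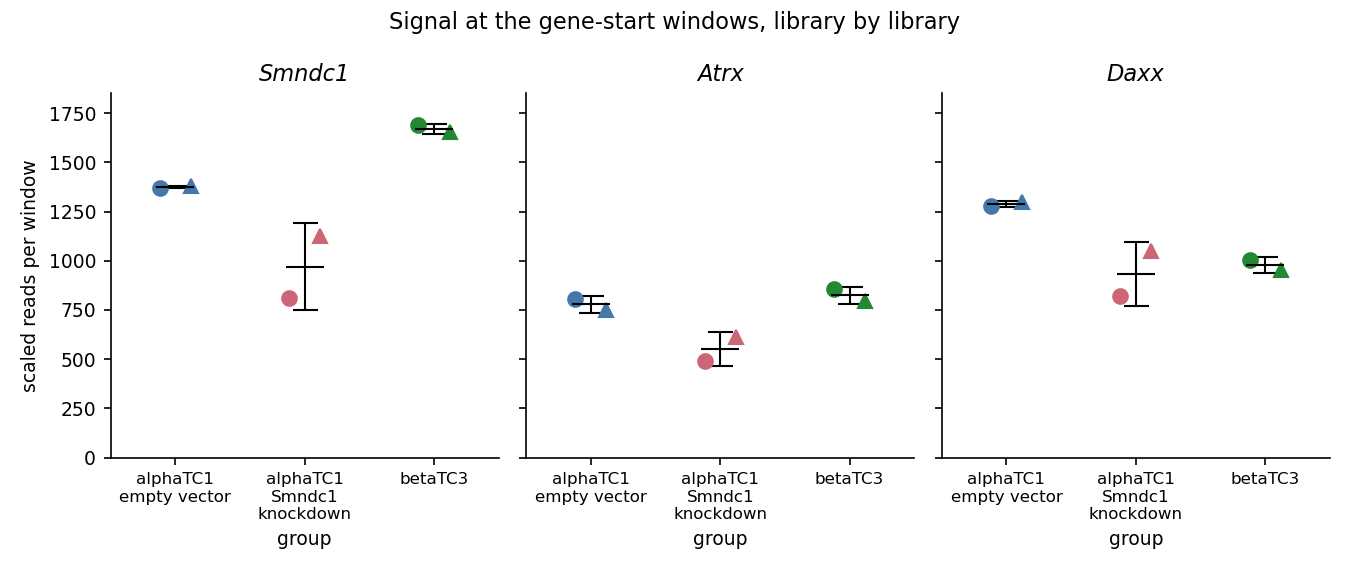
Scaled reads per 401 bp window at the 3 genes by group, with circles for library 1, triangles for library 2, and black marks for the mean ± SD (n = 2). The knockdown libraries lie below the empty-vector libraries at all 3 genes, and betaTC3 is highest at Smndc1 with 1653 and 1689.

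The first comparison asked whether the signal at these starts changes after the knockdown. All 3 windows were lower in the knockdown libraries, to 70.5% of the empty-vector mean at Smndc1, 70.7% at Atrx and 72.4% at Daxx, and none of the differences passed the test. The means were 969.3 ± 222 against 1374 ± 5.30 scaled reads at Smndc1, 550.3 ± 87.4 against 778 ± 41.9 at Atrx and 933.8 ± 162 against 1289 ± 16.2 at Daxx (SD, n = 2 per group). In log2 the changes were -0.52 ± 0.19 (SE), -0.51 ± 0.15 and -0.48 ± 0.17, with adjusted p = 0.128, 0.119 and 0.124 by limma. None of the 17641 windows passed (0.0%), 6169 (35.0%) had an unadjusted p under 0.05, edgeR on the recovered reads called 0 (0.0%) with TMM scaling and 83 with the authors' scaling, and DESeq2 called 10 (0.0567%). At all 3 genes both knockdown libraries were below both empty-vector libraries, as they were at 64.6% of all windows.

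The whole table shifted in the same direction, with a median log2 change of -0.37 and 81.2% of windows below 0. With each library centred on its median the changes at Smndc1, Atrx and Daxx were -0.15, -0.13 and -0.10 (adjusted p = 0.516, 0.541 and 0.571 by limma), and again 0 windows of the table passed (0.0%), while 2315 (13.1%) had an unadjusted p under 0.05. Windows of like level on the same chromosome, within 0.25 of the gene in mean log2 over all 6 libraries, moved alike before centring. The 15 such windows on chromosome 19 had a median of -0.42 (quartiles -0.49 to -0.35), the 47 on chromosome X -0.44 (-0.49 to -0.38) and the 123 on chromosome 17 -0.45 (-0.55 to -0.38). Of these, 2, 12 and 53 lay below Smndc1, Atrx and Daxx. The genes lay -0.11, -0.07 and -0.02 from these medians. With centred libraries the standard errors of their changes were 0.09, 0.08 and 0.07. The -0.11 of Smndc1 was larger than its 0.09 but smaller than its standard error of 0.19 on the authors' scale. With a band of 0.5, and with windows of all chromosomes, the distance of Smndc1 was -0.08. The distances of Atrx and Daxx were smaller than their standard errors on both scales. None of these distances was tested.

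The 2 knockdown libraries stood apart from each other. Library 1 minus library 2 was -0.47 in log2 at Smndc1, -0.32 at Atrx and -0.35 at Daxx, against a median of -0.25 over all windows and of -0.35, -0.31 and -0.34 over the windows of like level. The same difference between the empty-vector libraries was -0.01, 0.11 and -0.03. Without knockdown library 2 the changes were -0.76 at Smndc1, -0.67 at Atrx and -0.65 at Daxx and passed (adjusted p = 0.0288 for each by limma), where the lone knockdown library takes its spread from the remaining libraries. In that fit 35.6% of all windows passed, 34.2% as lower in the knockdown. Over all 16 alternatives the adjusted p ranged from 0.0288 to 0.98 at each of the 3 genes.

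**Figure D3:**
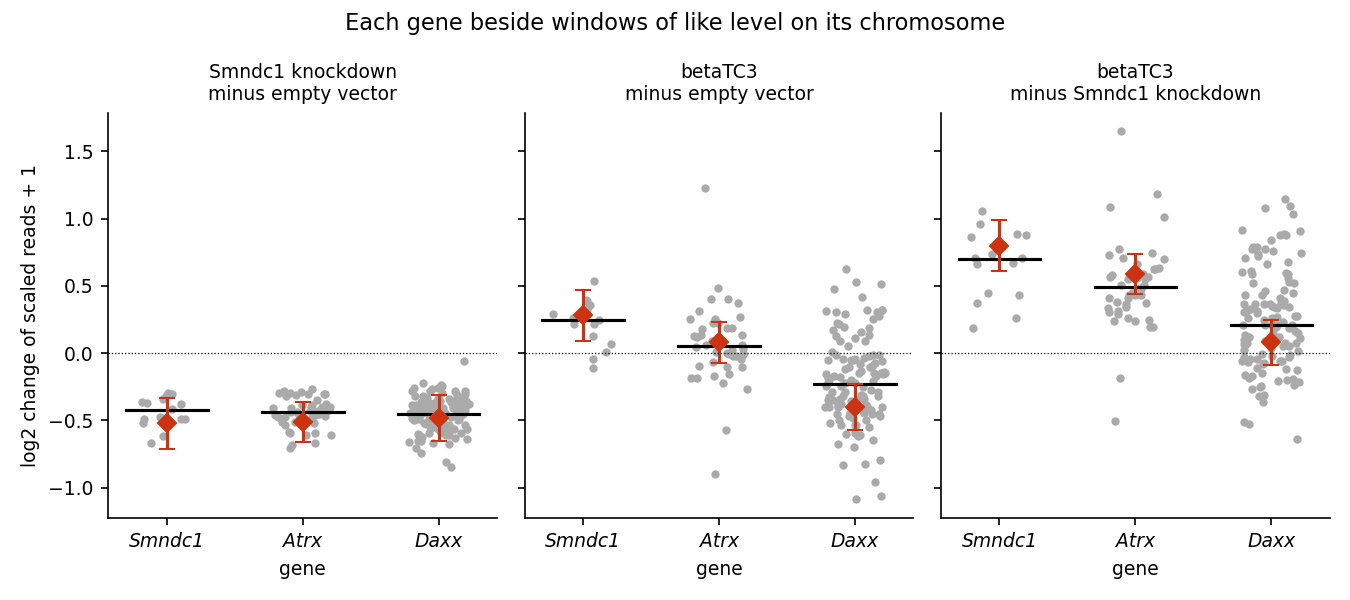
Log2 change of scaled reads + 1 at the 3 genes (red diamonds, bars are the SE) in the 3 comparisons, beside windows of like level on the same chromosome (grey points, black lines are their medians). After the knockdown the grey points gather near the genes at medians of -0.42 to -0.45, and in betaTC3 the medians differ between chromosomes.

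The second comparison set betaTC3 against the empty-vector alphaTC1 cells, 2 lines that differ in the hormone they make. Smndc1 was at 122% of the empty-vector mean, Atrx at 106% and Daxx at 75.9%, and on the authors' scale none of the 3 passed. The betaTC3 means were 1671 ± 25.5, 824.9 ± 44.1 and 978.5 ± 39.3 scaled reads (SD, n = 2). The log2 changes were 0.28 ± 0.19 (SE) at Smndc1, 0.08 ± 0.15 at Atrx and -0.40 ± 0.17 at Daxx, with adjusted p = 0.258, 0.671 and 0.0834 by limma. Of all windows 55.2% passed, 22.1% as higher and 33.2% as lower in betaTC3. Without either knockdown library, which lends its spread to the fit, Smndc1 passed at adjusted p = 0.0259 and 0.0246 and Daxx at 0.0117 and 0.0114 by limma, in fits where 10628 and 10641 of the 17641 windows passed.

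These calls depended on the scaling and, for Smndc1 and Daxx, also on the libraries in the fit. Standard errors at Smndc1, Atrx and Daxx were 0.19, 0.15 and 0.17 on the authors' scale and 0.09, 0.08 and 0.07 with centred libraries. With libraries centred on their medians all 3 windows passed by limma, Smndc1 and Atrx higher in betaTC3 by 0.46 and 0.27 in log2 (adjusted p = 0.00334 and 0.028) and Daxx lower by -0.22 (adjusted p = 0.0295), when 66.2% of all windows did, 34.3% as higher and 31.9% as lower. Over the alternatives the adjusted p ranged from 6.23e-05 to 0.515 for Smndc1, 0.026 to 0.935 for Atrx and 0.0114 to 0.306 for Daxx, and the directions held in each. The scale of the library is removed when a window is divided by the median window of its library. By that measure Smndc1 was 4.37 and 4.24 times the median window with the empty vector, 3.62 and 4.18 times with the knockdown, and 5.76 and 6.12 times in betaTC3. Daxx was 4.07 and 4 times, 3.65 and 3.89 times, and 3.43 and 3.52 times. The order of betaTC3 and the alphaTC1 libraries was thus opposite at Smndc1 and Daxx.

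Chromosomes moved with these differences. On chromosome 19 the 15 windows of like level to Smndc1 had a median log2 change of 0.25 (quartiles 0.10 to 0.34), and 9 of them lay below the 0.28 of Smndc1. After centring, 13 of the 15 passed (86.7%). Windows of like level on all chromosomes, 842 in number, had a median of -0.25, and 90.5% of them lay below Smndc1. Over the 381 windows of chromosome 19 with a mean of at least 100 scaled reads the median was 0.11, against -0.16 on the other chromosomes. The change at Smndc1 was thus 0.04 above the median of the 15 windows of like level on its chromosome, 0.14 above that of the 52 windows there within 0.5, and 0.53 above that of like windows on all chromosomes.

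Atrx and Daxx lay 0.04 and -0.17 from the medians of windows of like level on their chromosomes, both within the quartiles. With centred libraries the standard errors of their changes were 0.08 and 0.07, so the distance was larger than its standard error at Daxx only. The 47 windows of like level on chromosome X had a median of 0.05 (-0.06 to 0.19), and 27 of them lay below the 0.08 of Atrx. The 123 windows on chromosome 17 had a median of -0.23 (-0.43 to -0.03), and 38 of them lay below the -0.40 of Daxx. Of these 123 windows, 2 were called higher and 26 lower on the authors' scale. The part of the chromosomes in the values of the genes was not tested.

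The third comparison, betaTC3 against the knockdown, shares its libraries with both others and gave calls at 2 of the 3 genes. Smndc1 was at 172% of the knockdown mean, a log2 change of 0.80 ± 0.19 (SE, adjusted p = 0.0115 by limma), and Atrx at 150% (0.59 ± 0.15, adjusted p = 0.0163), with betaTC3 higher than both knockdown libraries at each. Daxx was at 105% (0.08 ± 0.17, adjusted p = 0.698), and its groups overlapped. Of all windows 60.6% were called, 36.6% as higher and 24.0% as lower in betaTC3. With centred libraries the change was 0.61 at Smndc1 (adjusted p = 0.000922 by limma) and 0.40 at Atrx (adjusted p = 0.00516), while Daxx turned to -0.12 (adjusted p = 0.176). Then 69.3% of all windows passed, 35.9% as higher and 33.4% as lower. The adjusted p over all alternatives ranged from 3.27e-07 to 0.1 for Smndc1, 0.00148 to 0.11 for Atrx and 0.0662 to 0.898 for Daxx. Both calls were lost without either betaTC3 library, at adjusted p = 0.1 and 0.0804 for Smndc1 and 0.11 and 0.0664 for Atrx by limma, and that of Atrx also without either empty-vector library (adjusted p = 0.0511 and 0.0519). Of the windows of like level, 10 of 15 were called higher for Smndc1 and 28 of 47 for Atrx, with medians of 0.70 and 0.49.

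Ratios between the 3 windows within a library do not depend on the scaling at all. Smndc1 over Daxx was 1.07 and 1.06 with the empty vector, 0.991 and 1.07 with the knockdown, and 1.68 and 1.74 in betaTC3. Atrx over Daxx was 0.632 and 0.575, 0.596 and 0.584, and 0.851 and 0.835. Smndc1 over Atrx was 1.70 and 1.84, 1.66 and 1.84, and 1.97 and 2.08. For each ratio both betaTC3 libraries lay above all 4 alphaTC1 libraries, and the knockdown and empty-vector libraries overlapped. How many other pairs of windows separate in this way was not counted. With centred libraries 66.2% of all windows passed between betaTC3 and the empty vector. The 3 ratios are not independent, since the first is the product of the other 2. In 2 libraries against 2 the exact two-sided permutation test cannot go below p = 0.333, the value it gave for each ratio between betaTC3 and either alphaTC1 group. Between knockdown and empty vector it gave 1, 1 and 0.667 in the order above.

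**Figure D4:**
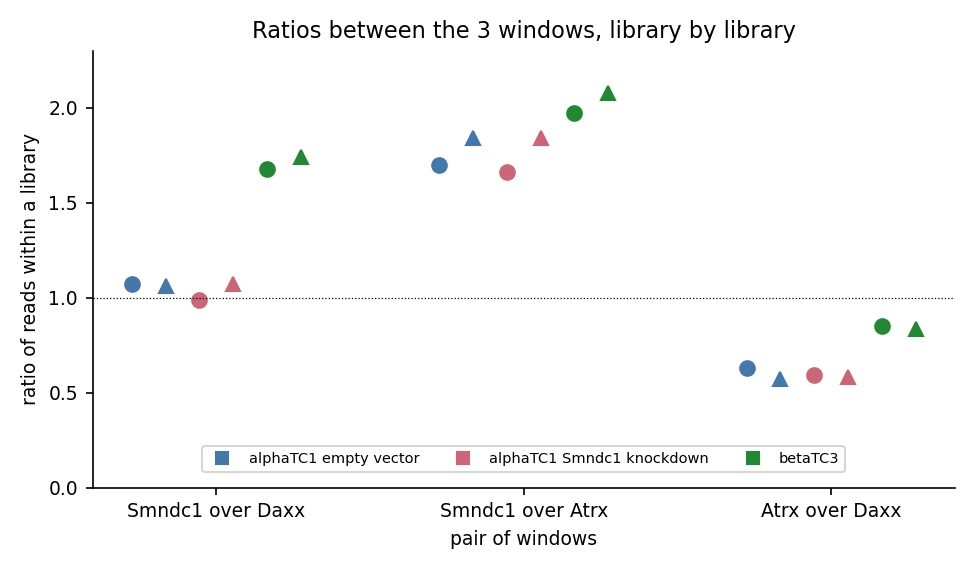
Ratio of the reads of 1 window to those of another within each library (circles for library 1, triangles for library 2), coloured by group, with a dotted line at 1. Knockdown and empty-vector libraries overlap in each ratio, and betaTC3 lies above them, at 1.68 and 1.74 for Smndc1 over Daxx. Other pairs of windows were not counted.

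The nearest windows on each side differed in kind between the genes. Smndc1 had weak windows on both sides, with the window assigned to Gm10197 30066 bp to one side at 47.38 ± 10.8 scaled reads with the empty vector and 0 in betaTC3 (adjusted p = 1.41e-05 by limma), and the one assigned to Gm50393 106813 bp to the other side at 1.768 ± 1.24 and 96.03 ± 8.19 (adjusted p = 0.000213). Atrx has Fgf16, a fibroblast growth factor gene, 164774 bp to one side, at 3.754 ± 4.05 with the empty vector and 72.97 ± 0.428 in betaTC3 (adjusted p = 0.00122 by limma). On its other side Magt1, which encodes a subunit of the oligosaccharyltransferase, held 542.8 ± 5.61 and 583.2 ± 15.0 (adjusted p = 0.598). With centred libraries, where 66.2% of all windows passed, Magt1 was higher in betaTC3 by 0.28 in log2 (adjusted p = 0.0345 by limma), and Atrx by 0.27. Daxx lies among strong windows, with Kifc1, a kinesin gene, 19279 bp away at 798 ± 6.13 and 750.4 ± 19.6 (adjusted p = 0.64) and Zbtb22, a zinc finger gene, 6738 bp away at 599.4 ± 38.8 and 566.6 ± 14.0 (adjusted p = 0.68). Neither Kifc1 nor Zbtb22 passed with centred libraries (adjusted p = 0.311 and 0.313 by limma). After the knockdown Kifc1 and Zbtb22 changed by -0.57 and -0.71 in log2, beyond the -0.48 of Daxx, and did not pass either (adjusted p = 0.117 for both by limma).

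The windows most like each gene were sought as those with the smallest root mean square difference of log2 values over the 6 libraries. For Smndc1 they were at Max, Creld2 and Ammecr1l (differences of 0.055, 0.056 and 0.057), for Atrx at 2210016L21Rik, Gm50069 and Fbxl19 (0.025, 0.029 and 0.03) and for Daxx at Senp3, Mtmr14 and Zbtb43 (0.035, 0.042 and 0.05). None lies on the chromosome of its gene. Within 0.2 of each gene there were 133 windows for Smndc1, 619 for Atrx and 507 for Daxx, so many windows had the profile of Atrx and Daxx.

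Other genes of the same pathways were taken as 4 lists of 63 genes. Of these, 16 had no window assigned, but 13 of the 16 had a window of another gene within 1 kb of a gene end. After the knockdown no window of any list passed by limma, as in the whole table. Median log2 changes were -0.40 for the SMN complex and related genes (10 windows), -0.38 for the U2 snRNP and early spliceosome (17 windows), -0.57 for partners of ATRX and DAXX and of PML bodies (11 windows) and -0.46 for H3.3 genes and other H3 chaperones (11 windows), against -0.37 for all windows. Each of these windows was below 0 on the authors' scale, while with centred libraries the medians were -0.03, 0, -0.20 and -0.09. Among windows with a mean of at least 100 scaled reads, those with the largest change were Tdrd3 (-0.61) and Gemin5 (-0.58) of the first list, Dhx15 (-0.56) and Eftud2 (-0.54) of the second, Suv39h2 (-0.74) of the third, and Asf1a (-0.76) and Hjurp (-0.53) of the fourth, with adjusted p = 0.117 to 0.297 by limma.

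Between betaTC3 and the empty vector, 2 of the 10 windows of the SMN list were higher and 4 lower, with a median of -0.19 against -0.13 for all windows (4 and 4 with centred libraries). Of all windows 22.1% were higher and 33.2% lower, and 34.3% and 31.9% with centred libraries. Prmt5, the arginine methyltransferase that modifies Sm proteins, held 555.4 ± 28.8 scaled reads in betaTC3 and 365.9 ± 32.5 with the empty vector (adjusted p = 0.0177 by limma), and Tdrd3, another Tudor protein, 482 ± 119 and 283.2 ± 18.9 (adjusted p = 0.0294). Clns1a, which brings Sm proteins to PRMT5, was lower at 615.1 ± 31.9 against 1189 ± 46.5 (adjusted p = 0.00194), as were Strap (989.7 ± 32.3 and 1735 ± 15.8) and a window 4502 bp into Gemin7 (442.4 ± 12.3 and 630.4 ± 20.3). Of the 17 spliceosome windows 2 were higher and 5 lower, with a median of 0.08 (7 and 5 centred), where 22.1% and 33.2% of all windows were called (34.3% and 31.9% centred). Sf3b6 (1321 ± 51.0 and 954 ± 18) and Snrpb2 (1431 ± 16.7 and 1010 ± 31.7) were higher, and Sf3a1 (694 ± 19.2 and 1529 ± 61.3), Eftud2 (777.1 ± 4.61 and 1561 ± 111) and Sf3b1 (812.7 ± 72.7 and 1633 ± 102) were lower, all of them subunits of the U2 or U5 particles (adjusted p = 0.000756 to 0.0316 by limma).

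Of the 11 windows of ATRX and DAXX partners 1 was higher and 3 were lower in betaTC3, with a median of -0.13 (2 and 3 centred), against the same 22.1% and 33.2% of all windows (34.3% and 31.9% centred). Cbx1, which encodes the heterochromatin protein HP1 beta, held 1079 ± 144 scaled reads in betaTC3 and 1883 ± 53.4 with the empty vector (adjusted p = 0.0112 by limma), and Sumo2, a ubiquitin-like modifier, 1214 ± 244 and 1904 ± 9.43 (adjusted p = 0.0327). The other lower window was weak and distant, 24571 bp from the start of Cbx5, which encodes HP1 alpha (4.545 ± 3.74 and 47.61 ± 13, adjusted p = 0.00172 by limma). None of the 11 windows of H3.3 genes and H3 chaperones passed, with a median of -0.13, and with centred libraries 1 was higher and 1 lower. The largest changes there were at Asf1a (742.1 ± 569 and 381.7 ± 20.0, adjusted p = 0.293) and at H3f3b, a gene of H3.3 (1218 ± 173 and 1613 ± 34.4, adjusted p = 0.111).

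Between betaTC3 and the knockdown, 4 windows of the SMN list were higher and 1 lower, 6 and 3 of the spliceosome list, 3 and 1 of the ATRX and DAXX partners and 1 and 0 of the H3 chaperones, against medians of 0.26, 0.31, 0.40 and 0.29 and of 0.23 for all windows. Smn1, the gene of SMN itself, was among the higher ones (828.1 ± 48.7 and 547.8 ± 134, adjusted p = 0.0295 by limma), as was Sf1, the branch point binding protein, which lies on chromosome 19 like Smndc1 (1860 ± 525 and 887.1 ± 202, adjusted p = 0.0113). Suv39h1 and Suv39h2, methyltransferases of H3K9, were higher as well (adjusted p = 0.0304 and 0.0462). Tdrd3, Prmt5, Sf3b6 and Snrpb2 were again higher, and Clns1a, Sf3a1, Sf3b1, Eftud2 and the window of Cbx5 again lower (adjusted p = 0.00242 to 0.0435 by limma). Asf1a, a chaperone of H3 and H4, was the 1 called window of the last list, at 742.1 ± 569 against 229.3 ± 59.1 (adjusted p = 0.0477 by limma), with the widest spread between the betaTC3 libraries of those named here. With centred libraries the SMN list gave 4 higher and 4 lower windows, the spliceosome list 6 and 5, the partners 3 and 3 and the H3 chaperones 1 and 1, and over all windows the shares were 36.6% higher and 24.0% lower on the authors' scale and 35.9% and 33.4% with centred libraries.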

How the data were processed

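Per the labels' protocols, ChIP DNA was sequenced in 50 bp single reads. Tools listed in the submitters' processing notes were MACS2 2.2.7.1, Bowtie2 2.4.1 and Picard 2.19.2, with mm10 (GRCm38) as build. Steps of scaling, filtering and any input subtraction are not given by sources used here. The window table deposited by the authors holds 1 normalised signal value per library for 17641 windows, 99.84% of them 401 bp wide. All values (100%) were whole multiples of 1 step per library within 0.001, so whole reads were recovered. The deposited peak lists, 1 per library, hold the authors' score, their fold (a ratio over local background), and p-values and q-values as −log10. Input samples were not analysed separately.

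Limma 3.58.1 was run on log2(scaled reads + 1) with a mean for each of the 3 groups and an intensity trend, with Benjamini-Hochberg adjustment across all windows and a call at an adjusted p under 0.05. The fit was tested on simulated reads with no shift between the libraries of a group, unlike the knockdown libraries here. That test therefore does not cover such a shift, and its outcome is not reported here. Alternatives used edgeR 4.0.16 and DESeq2 1.42.0 on the recovered reads, which are not the deposited unit. Python 3.11.15 with numpy 2.4.6, pandas 2.3.3 and matplotlib 3.10.9 was used beside R 4.3.3. Gene starts are those of the deposited table. In each list and comparison the text names up to 3 called windows per direction by smallest adjusted p, or the 2 of largest change with a mean of at least 100 where none was called; some windows named by this rule are not reported here. The 3 genes and the lists were chosen with earlier results of these data known. No molecular identifiers are labelled, so reads may not be independent molecules.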

Additional observations from a re-analysis of the deposited data

How the results depend on the processing

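Over 10 alternatives that kept both libraries of each group compared, 76 of the 90 changes at the 3 genes kept their direction and their side of the threshold. Between betaTC3 and the empty vector, calls were gained for Smndc1 when libraries were centred (0.46), by edgeR with TMM (0.46), by DESeq2 (0.51) and when the third group was left out of the fit (0.28). They were gained for Atrx when centred (0.27), by edgeR with TMM (0.26) and by DESeq2 (0.31), and for Daxx when centred (-0.22), by edgeR with TMM (-0.22) and when the third group was left out of the fit (-0.40). In these fits 66.2% of all windows passed when centred, 67.8% by edgeR with TMM and 61.9% by DESeq2, and 10653 of 17641 windows passed with the third group left out. Between betaTC3 and the knockdown, the call of Atrx was lost when the third group was left out of the fit (0.59, adjusted p = 0.053 by limma), and Daxx changed sign when centred (-0.12), by edgeR with TMM (-0.13) and by DESeq2 (-0.06). The cause was not tested.

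After the knockdown, limma called 335 windows at a pseudocount of 0.1, 163 with no trend and 31 when the third group was left out of the fit, edgeR with the authors' scaling 83 and DESeq2 10. Leaving out 1 library gave 0 to 6281 (without knockdown library 2) windows for this comparison, 6983 to 10641 for betaTC3 minus empty vector and 6523 (without betaTC3 library 1) to 11055 for betaTC3 minus knockdown. For the 3 comparisons in that order the changes then ranged from -0.76 to -0.29, 0.27 to 0.30 and 0.57 to 1.04 at Smndc1, from -0.67 to -0.34, 0.03 to 0.14 and 0.43 to 0.75 at Atrx, and from -0.65 to -0.30, -0.44 to -0.36 and -0.10 (without knockdown library 1) to 0.26 at Daxx.

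The difference of Smndc1 to windows of like level, betaTC3 minus empty vector, was 0.14 with a band of 0.5 and 0.53 with all chromosomes. With all chromosomes it was 0.61 for betaTC3 minus knockdown, and in betaTC3 minus empty vector 0.16 for Atrx and -0.26 for Daxx. Peaks on Daxx or within 2 kb of it numbered 13 over the lists, and 6 when they had to overlap the window or to cover 50% of it. Replicate numbers did not pair the libraries (correlations of same-numbered deviations of -0.0079, 0.085 and -0.176). With a replicate block the changes were the same, and the counts called were 0, 9152 and 9891. No call at the 3 genes changed with it.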
